A study of Homo sapiens with 10 samples.

Results

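The ZNF genes that lie outside chromosome 19 were examined in RNA from HAP1 cells without and with a knockout of RBM4. They were taken as the gene rows of the paired-end count table that met 3 conditions: a symbol of ZNF followed by a number and at most 1 letter, a protein-coding type, and a place on an autosome other than chromosome 19. Of 58051 gene rows, 250 met the rule, and chromosome 19 held another 247 ZNF genes. The groups were RBM4 KO clone 1 (n = 3), RBM4 KO clone 2 (n = 2) and wild type (n = 3), all sequenced paired-end, and a single-end pair of 1 library from an RBM4 KO clone and 1 from wild type cells, with no replicate. HAP1 is a near-haploid human line derived from KBM-7, a line from a chronic myeloid leukaemia, so a gene is mostly present as a single copy. Each knockout group is 1 clone, so an effect of the knockout and a feature of that clone cannot be told apart within it. The labels do not say which clone the single-end library came from. The labels do not say that the replicates were grown as separate cultures. P-values therefore cover the spread among these libraries alone, and that spread may be technical. RBM4 encodes an RNA-binding protein that acts in splicing and translation, and its RNA was lowered rather than absent: it averaged 23.2 CPM (counts scaled to a common library size) in clone 1, 25.5 CPM in clone 2 and 79.4 CPM in wild type. Of the haematopoietic markers looked up, CD14 was highest, at 0.174 CPM in clone 1, 0.287 CPM in clone 2 and 0.218 CPM in wild type, CD33 averaged at most 0.147 CPM and PTPRC, CD34 and SPI1 at most 0.0443 CPM in a group, and MPO was at 0. Of the mesenchymal markers, VIM averaged 397 CPM in clone 1, 416 CPM in clone 2 and 466 CPM in wild type, and FN1, COL1A1 and S100A4 between 2.44 and 26.3 CPM in each group, while COL1A2 was at 0 and COL3A1 at most at 0.023 CPM. VIM and FN1 fell in the mean of the clones (adjusted p = 0.0279 and 0.0164, edgeR), and COL1A1 and S100A4 rose (adjusted p = 1.28e-05 and 0.000628). Of the epithelial markers, KRT18 averaged 51.5 CPM in clone 1, 56.6 CPM in clone 2 and 38.2 CPM in wild type. KRT8 averaged 5.31, 14.4 and 4.1 CPM and EPCAM 2.3, 0.963 and 1.57 CPM in the same order, and CDH1 and KRT19 at most 0.0124 CPM. KRT18 and KRT8 rose (adjusted p = 0.000252 and 7.74e-06, edgeR), and EPCAM did not pass the test (adjusted p = 0.804). The paired-end libraries held 33192095 to 55617525 counts each, and the totals were 41265510 in the single-end KO library and 44140706 in the single-end wild type library.

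The C2H2 zinc finger is a short fold in which cysteines and histidines hold a zinc ion, and arrays of such fingers let a protein read a stretch of DNA base by base. Many human ZNF proteins also carry a KRAB box, which recruits TRIM28 and through it the histone methyltransferase SETDB1 and HP1 proteins, and these silence transposable elements and some genes. Another group carries a SCAN box, through which the proteins pair with each other, and the remaining members are a mixed group with roles that include transcription, splicing and ribosome assembly.

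The 250 genes lay on 19 autosomes, with 35 on chromosome 7, 30 on chromosome 16, 20 on chromosome 1, 19 on chromosome 3, 18 on chromosome 8 and 16 on chromosome 10. A KRAB box was found in the translated coding sequence of 123 of them (49.2%), against 213 of the 247 ZNF genes on chromosome 19 (86.2%). KRAB assignments near the score threshold are uncertain. A SCAN box was found in 19, both boxes in 11 and neither in 119. The number of C2H2 fingers ran from 0 to 33 with a median of 9, and 9 members had no finger by the pattern searched. All but 35 of the 250 passed the filter on low counts and were tested. Those 35 had at most 43 counts over the 8 libraries, 16 of them had none, and 21 carried a KRAB box. Among tested members the mean level over the 8 libraries ran from 0.375 to 286 CPM with a median of 19.9 CPM, and 155 reached 10 CPM.

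Per kilobase of exon, the 6 members with the highest levels were ZNF593, ZNF664, ZNF598, ZNF770, ZNF22 and ZNF622, at 58.4, 38.6, 28.8, 18.4, 18.4 and 18.3 CPM per kb. ZNF593 and ZNF622 are known for their part in the maturation of the large ribosomal subunit, and ZNF598 is the ubiquitin ligase that marks collided ribosomes. None of these 6 has a KRAB box, and 5 of the 30 highest members per kilobase had one. The highest KRAB member was ZNF589 at 17.1 CPM per kb, and the median was 2.98 CPM per kb among tested KRAB members, against 4.33 CPM per kb among tested members without the box. ZNF664 had 240, 256 and 230 CPM in clone 1, 248 and 243 CPM in clone 2, against 254, 246 and 243 CPM in wild type. ZNF622 had 32.5, 30.7 and 29.7 CPM in clone 1, 31.1 and 31.4 CPM in clone 2, against 31.2, 29.9 and 32.4 CPM in wild type. The groups overlapped for both, and the same held for ZNF598 and ZNF22. In ZNF593 every knockout library (43.7 to 49.5 CPM) lay above every wild type library (41.7 to 43.4 CPM), with a log2 fold change of 0.13 ± 0.06 (SE) that did not pass the test (adjusted p = 0.121, edgeR). Of these 6, ZNF770 alone was called, and it is described below with the members that fell. Under the correction for GC content described below ZNF770 was not called (adjusted p = 0.292) and ZNF598 was, at a log2 fold change of -0.16 (adjusted p = 0.0158), against -0.03 without it. With that correction ZNF593 had a log2 fold change of -0.0 (adjusted p = 0.98). ZNF593 was called when a term for the running sample numbers was added or low sample numbers alone were used. ZNF593, ZNF664, ZNF598, ZNF22 and ZNF770 share exon sequence with another annotated gene on the opposite strand, and ZNF664 also on its own strand, so their levels are uncertain where the counting did not use strand.

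In the average over both clones, set against wild type, 15 members rose and 21 fell at an adjusted p below 0.05 (edgeR quasi-likelihood test, adjusted over all features). These 36 are 16.7% of the members tested, against 18.0% of all 20747 features tested (9.87% higher and 8.09% lower), so the share of members called lay near that of all features. The median log2 fold change of the tested members was -0.02, with quartiles of -0.14 and 0.11, and that of all features was 0.00. Among autosomal protein-coding genes as a whole 23.8% were called, with a median of 0.01. Past the threshold and at least 2-fold apart were 1 member that rose and 3 that fell, against 2.8% of all features. Every knockout library lay above every wild type library for 27 members, against 13.5% of all features, and below for 32, against 11.8%. The summed level of the 250 genes was 6130, 6510 and 6560 CPM in clone 1, 6360 and 6550 CPM in clone 2, against 6600, 6620 and 6610 CPM in wild type. For the counts that follow, with 1 library left out, the share of all features called was not counted. They therefore cannot be read as a trait of the members. Fewer members were called without clone 2 replicate 1 (17), without wild type replicate 1 (14), 2 (17) or 3 (19).

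Taken singly, clone 1 had 15 members higher and 20 lower than wild type, which is 16.3% of those tested, against 16.0% of all features (9.37% higher and 6.64% lower). Clone 2 had 6 higher and 12 lower, or 8.37%, against 10.8% of all features (6.18% higher and 4.59% lower). Called the same way in both clones were 3 members that rose and 9 that fell, or 5.58%, against 7.51% of all features (4.42% higher and 3.09% lower). Both sets of calls rest on the same 3 wild type libraries. With 1 library left out, as follows, the share of all features called was again not counted. The clone 1 count was 23 without clone 1 replicate 1, 16 without wild type replicate 1 and 21 without wild type replicate 2. The clone 2 count was 6 without clone 2 replicate 1 and 7, 8 and 8 without wild type replicates 1, 2 and 3, and the count for both clones was 4, 5, 6 and 5 in the same order.

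**Figure D1:**
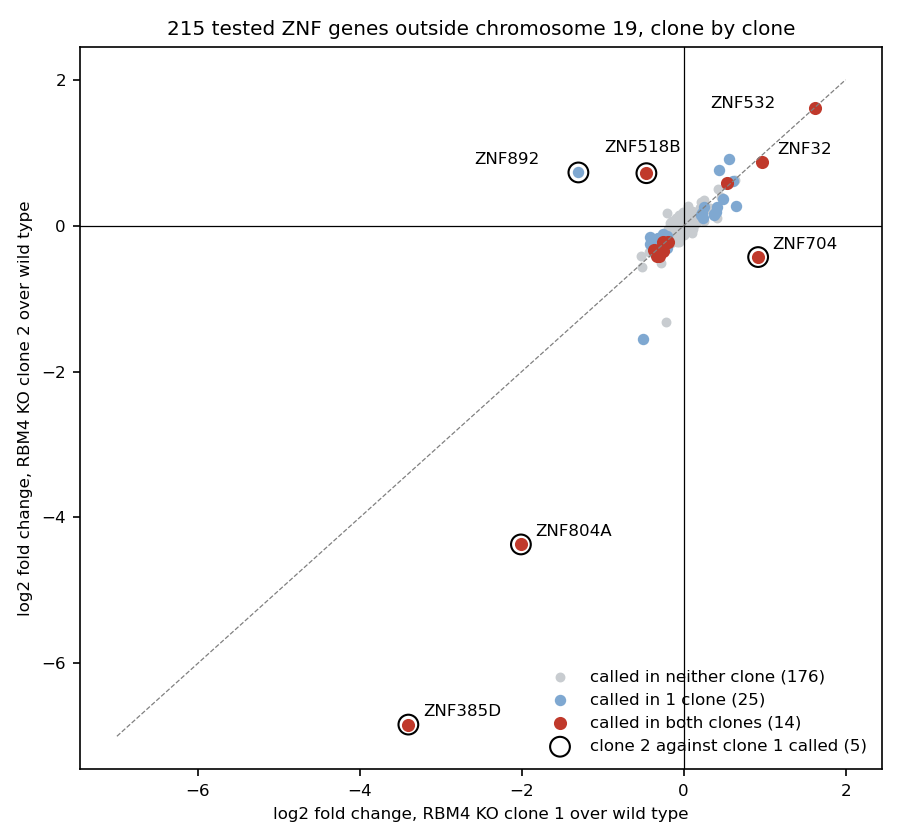
Log2 fold change over wild type of the tested members in RBM4 KO clone 1 (horizontal axis) and clone 2 (vertical axis), with colours for calls in neither, 1 or both clones, rings for a called difference between the clones and a dashed line of equal change. Most members lie near 0 in both clones, while ZNF385D and ZNF804A lie far below, ZNF532 and ZNF32 above, and ZNF518B and ZNF704 on opposite sides of 0 in the clones.

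ZNF385D and ZNF804A fell most, in both clones, and to a lower level in clone 2 than in clone 1. ZNF385D (ENSG00000151789, chromosome 3, 21412222 to 22373321, minus strand, GRCh38) is a member of a family of zinc finger proteins named after ZNF385A, an RNA-binding protein and target of p53. ZNF804A (ENSG00000170396, chromosome 2, 184598366 to 184939492, plus strand) is known from genetic association with schizophrenia. The promoter windows of these 2 are shown because they fell most, and whether they share any control was not tested. Each window covers 250 bases before and 50 after the RefSeq start in GRCh38.p14, written 5′ to 3′ on the strand of the gene. Capitals mark matches on either strand to the TATA box letters TATAAA, the CAAT box letters CCAAT or the GC box core GGGCGG. The ZNF385D window (chr3:21751161-21751460, minus strand) has its start 622111 bases inside the 5′ end of the GENCODE gene model, and the ZNF804A window (chr2:184598279-184598578, plus strand) has its start 163 bases from that end.
ZNF385D: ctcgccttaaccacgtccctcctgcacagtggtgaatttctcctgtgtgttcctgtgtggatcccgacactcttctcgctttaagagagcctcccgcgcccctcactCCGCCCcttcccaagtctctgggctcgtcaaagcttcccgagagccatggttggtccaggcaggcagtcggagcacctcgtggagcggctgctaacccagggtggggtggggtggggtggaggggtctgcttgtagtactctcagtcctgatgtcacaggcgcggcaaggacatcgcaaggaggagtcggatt
ZNF804A: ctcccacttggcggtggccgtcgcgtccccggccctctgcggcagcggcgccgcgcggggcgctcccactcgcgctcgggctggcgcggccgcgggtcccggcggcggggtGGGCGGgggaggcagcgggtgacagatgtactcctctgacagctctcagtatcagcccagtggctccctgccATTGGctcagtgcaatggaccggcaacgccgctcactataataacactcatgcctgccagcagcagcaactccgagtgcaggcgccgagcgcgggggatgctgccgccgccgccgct
The ZNF385D window held 1 match to GGGCGG and 16 CpG dinucleotides, and the ZNF804A window held 1 match to GGGCGG, 1 to CCAAT and 36 CpG dinucleotides. None of the windows printed here held TATAAA. No match says only that these letters are not in the window.

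ZNF385D had 1.06, 0.902 and 0.740 CPM in clone 1, 0.00 and 0.149 CPM in clone 2, against 10.8, 8.90 and 8.75 CPM in wild type. The 3 groups did not overlap, which the naming rule required of knockout against wild type, and clone 2 replicate 1 had no count. In counts, clone 1 held 115, clone 2 held 7 and wild type held 1127. The level in clone 1 was lower than in wild type by a ratio of 10.7 (exact 95% interval 8.81 to 13.1, counting error only), and that in clone 2 by a ratio of 119 (57.5 to 296). The log2 fold change was -3.40 ± 0.22 in clone 1 (SE, adjusted p = 9.3e-07, edgeR), -6.84 ± 0.38 in clone 2 (adjusted p = 1.78e-07) and -3.44 ± 0.51 in clone 2 against clone 1 (adjusted p = 0.00238). Fitted fold changes at so few counts depend on the prior count. In the single-end pair ZNF385D had 2 counts in the KO library and 360 in the wild type library, a ratio of 173 (47.6 to 1440).

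ZNF804A had 0.302, 0.523 and 0.592 CPM in clone 1, 0.099 and 0.085 CPM in clone 2, against 1.83, 1.88 and 2.16 CPM in wild type. Here too the 3 groups were separate, with clone 2 lowest, and the naming rule again required this of knockout against wild type. The level was lower than in wild type by a ratio of 4.01 (exact 95% interval 3.03 to 5.39) in clone 1, from 63 counts, and of 21.4 (10.7 to 50.2) in clone 2, from 8 counts. The log2 fold change was -2.01 ± 0.24 in clone 1 (adjusted p = 0.000109, edgeR) and -4.37 ± 0.38 in clone 2 (adjusted p = 4.4e-06). In the single-end pair it had 0 counts in the KO library and 36 in the wild type library, so it was at least 11.6-fold lower in the KO library at a floor of 3 counts. ZNF804A shares exon sequence with an annotated RNA gene on the opposite strand.

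None of the tested relatives of these genes by number was called lower. ZNF385A had 7.61, 7.38 and 7.68 CPM in clone 1, 6.91 and 6.76 CPM in clone 2, against 6.39, 5.11 and 5.58 CPM in wild type, with a log2 fold change of 0.33 ± 0.10 (adjusted p = 0.0295, edgeR). With the correction for GC content described below this was 0.20 (adjusted p = 0.203), and it was not called without clone 2 replicate 1 or 2 or wild type replicate 2 or 3. ZNF385B averaged 36.9 ± 1.4 CPM in clone 1 (SD, n = 3), 34.7 ± 3.0 CPM in clone 2 (n = 2) and 36.4 ± 0.47 CPM in wild type (n = 3), and its groups overlapped. ZNF385C averaged 1.15 ± 0.16 CPM in clone 1, 1.14 ± 0.04 CPM in clone 2 and 0.735 ± 0.25 CPM in wild type, and did not pass the test (adjusted p = 0.0776). ZNF804B was not tested, at 0.108 CPM or less in each library.

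ZNF532 and ZNF32 had the highest log2 fold changes in the mean of the clones and in clone 1. For neither did the difference of clone 2 from clone 1 pass the test (adjusted p = 0.999 and 0.897, edgeR). In clone 2 ZNF469, at a log2 fold change of 0.91 (adjusted p = 0.0422), stood between ZNF532 and ZNF32 (0.87), and it was not called in clone 1 (0.56, adjusted p = 0.144). With the correction for GC content described below, ZNF469 was not called in clone 2 either (0.79, adjusted p = 0.0602). Its call on the mean of the clones was lost in 9 of 18 alternatives, the DESeq2 test among them. ZNF532 (ENSG00000074657, chromosome 18, 58862600 to 58986480, plus strand) encodes a protein that works in a chromatin complex with ZNF592, ZNF687 and ZMYND8, and is a fusion partner of NUTM1 in NUT carcinoma. ZNF32 (ENSG00000169740, chromosome 10, 43643859 to 43648856, minus strand) encodes a protein with 6 fingers and no KRAB box. The promoter windows of ZNF532 and ZNF32 are shown because these 2 rose most in the mean of the clones. That of ZNF532 is at chr18:58862674-58862973 (plus strand) and that of ZNF32 at chr10:43648832-43649131 (minus strand), each the RefSeq start nearest to the GENCODE 5′ end.
ZNF532: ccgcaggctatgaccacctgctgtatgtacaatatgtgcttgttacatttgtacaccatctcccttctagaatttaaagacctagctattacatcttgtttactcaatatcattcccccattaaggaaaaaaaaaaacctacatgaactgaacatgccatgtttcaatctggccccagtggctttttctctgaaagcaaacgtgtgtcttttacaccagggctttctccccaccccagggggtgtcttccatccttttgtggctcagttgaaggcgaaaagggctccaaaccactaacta
ZNF32: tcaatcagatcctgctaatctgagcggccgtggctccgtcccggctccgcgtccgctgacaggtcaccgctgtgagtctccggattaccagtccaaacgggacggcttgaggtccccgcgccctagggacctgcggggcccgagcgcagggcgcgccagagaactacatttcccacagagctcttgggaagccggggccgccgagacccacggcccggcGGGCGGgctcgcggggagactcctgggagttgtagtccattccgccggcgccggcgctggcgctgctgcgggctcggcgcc
The ZNF532 window held none of the 3 motifs and 3 CpG dinucleotides, and the 5 windows that RefSeq gives for this gene held between 3 and 51. The ZNF32 window held 1 match to GGGCGG and 36 CpG dinucleotides.

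ZNF532 had 1.63, 1.73 and 1.73 CPM in clone 1, 1.61 and 1.79 CPM in clone 2, against 0.356, 0.713 and 0.606 CPM in wild type. All knockout libraries lay above all wild type libraries, which the naming rule required, and the clones overlapped. The rise was 3.07-fold, with a log2 fold change of 1.62 ± 0.22 (SE, adjusted p = 0.000216, edgeR), and the same in clone 1 and clone 2 (1.62 each). The single-end KO library had 2.11 CPM, against 0.301 CPM in the single-end wild type library. Its partners in the complex, ZNF592 and ZNF687, were looked up after the values were seen. ZNF592 averaged 95.8 ± 4.1 CPM in clone 1, 97.8 ± 3.1 CPM in clone 2 and 86.6 ± 1.9 CPM in wild type, and ZNF687 averaged 43.9 ± 2.8 CPM in clone 1, 42.2 ± 2.6 CPM in clone 2 and 37.5 ± 2.1 CPM in wild type. Both rose, by 0.16 (adjusted p = 0.0304, edgeR) and 0.20 (adjusted p = 0.037) on the log2 scale, and neither was called with the correction for GC content (adjusted p = 0.162 and 0.367) or without any 1 of the wild type libraries or clone 2 replicate 1.

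ZNF32 had 5.86, 7.0 and 5.55 CPM in clone 1, 6.07 and 5.42 CPM in clone 2, against 3.23, 3.22 and 2.96 CPM in wild type. Knockout and wild type libraries did not overlap, which the naming rule required, and the clones overlapped. The rise was 1.90-fold, with a log2 fold change of 0.92 ± 0.12 (adjusted p = 0.00012, edgeR). The single-end KO library had 4.85 CPM, against 3.05 CPM in the single-end wild type library. ZNF32 shares exon sequence with annotated antisense genes. ZNF467, whose mouse counterpart influences the choice between fat and bone cell fate, had 7.67, 6.79 and 8.91 CPM in clone 1, 9.26 and 6.97 CPM in clone 2, against 5.18, 5.48 and 5.53 CPM in wild type. It rose 1.47-fold (log2 fold change 0.56 ± 0.12, adjusted p = 0.0063), and had 8.53 CPM in the single-end KO library, against 5.14 CPM in the single-end wild type library. In single clones it was not called without wild type replicate 1, nor in clone 1 without replicate 3 and in clone 2 without replicate 1.

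The other 7 members that fell in both clones changed by much less, with log2 fold changes of the mean between -0.38 and -0.21. Of these, ZNF510, ZNF273 and ZNF267 carry a KRAB box, and ZNF654, ZNF280D, ZNF770 and ZNF281 do not. ZNF281 is a transcription factor known in mouse embryonic stem cells as a partner of NANOG. ZNF273 had 20.2, 23.2 and 19.6 CPM in clone 1, 20.9 and 22.1 CPM in clone 2, against 26.7, 27.6 and 26.9 CPM in wild type (log2 fold change -0.35 ± 0.06, adjusted p = 0.0025, edgeR). ZNF510 had 6.10, 7.11 and 6.37 CPM in clone 1, 5.74 and 6.55 CPM in clone 2, against 8.43, 8.45 and 7.88 CPM in wild type (-0.38 ± 0.09, adjusted p = 0.0126). ZNF770 had 92.2, 96.8 and 90.3 CPM in clone 1, 90.3 and 99.5 CPM in clone 2, against 113, 109 and 110 CPM in wild type (-0.24 ± 0.05, adjusted p = 0.00484). For each of the 7, all 5 knockout libraries lay below the 3 wild type libraries, which the naming rule required. With the correction for GC content, the mean difference was still called for ZNF510, ZNF273 and ZNF267 (adjusted p = 0.0256, 0.00176 and 0.0318). It was not called for ZNF654, ZNF280D, ZNF770 and ZNF281 (adjusted p = 0.163, 0.127, 0.292 and 0.0568). In single clones with the correction, ZNF273 was called in both, while ZNF510 and ZNF267 were called in clone 2 (adjusted p = 0.0486 and 0.0409) and not in clone 1 (adjusted p = 0.0889 and 0.151). In the single-end pair, ZNF510 had 7.04 CPM in the KO library and 5.81 CPM in the wild type library, the other way round, and the other 6 had log2 differences between -0.16 and 0.05. The call on the mean was lost without clone 2 replicate 1 or wild type replicate 1 or 2 for ZNF510 and ZNF281, without wild type replicate 2 or 3 for ZNF654, and without wild type replicate 1 or 3 for ZNF280D. The calls in single clones were lost more often. All 7 calls in clone 2 were lost without clone 2 replicate 1 and without wild type replicate 3, and those of ZNF510, ZNF273 and ZNF281 also without clone 2 replicate 2. In clone 1, ZNF273 and ZNF770 were called whichever library was left out, and the other 5 were not called without clone 1 replicate 1 or without wild type replicate 3. Of 17 alternatives, 9 ended the clone 1 call of ZNF510 and 9 that of ZNF281, the DESeq2 test among them. ZNF654, ZNF273, ZNF280D and ZNF770 share exon sequence with another annotated gene.

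**Figure D2:**
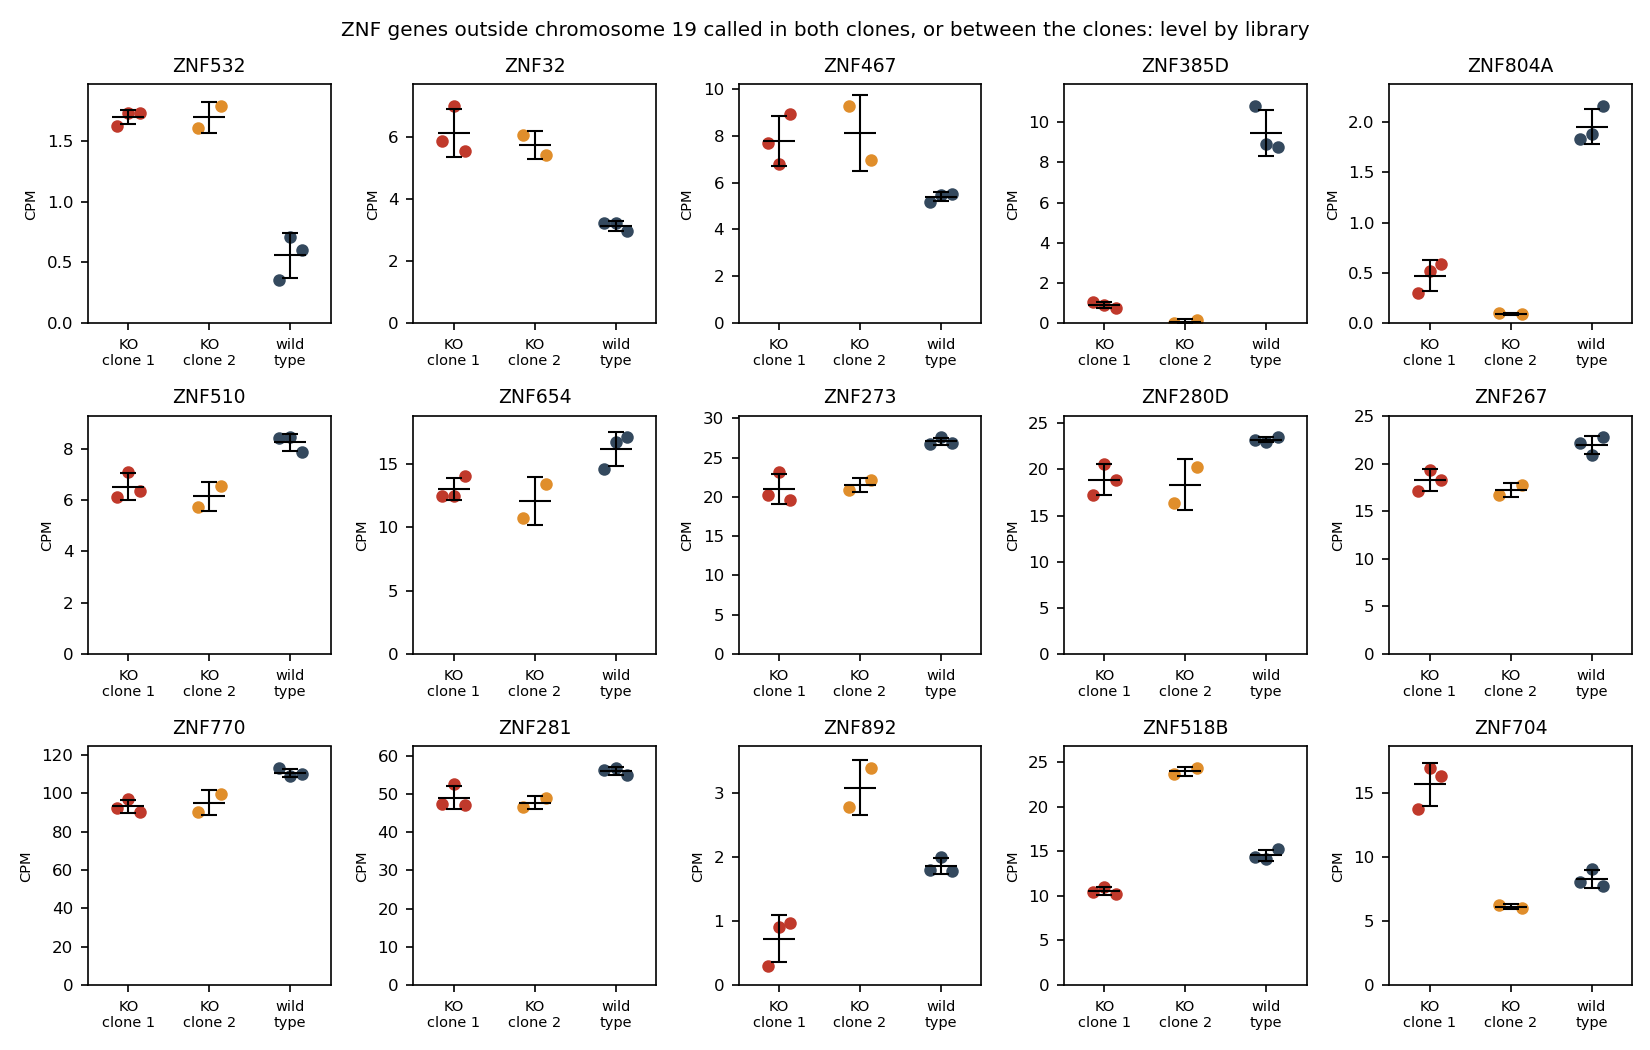
CPM in each library of the 12 members called the same way in both clones and of 3 further members called between the clones, in RBM4 KO clone 1 (3 libraries), RBM4 KO clone 2 (2 libraries) and wild type (3 libraries), with points for libraries, a horizontal line for the mean and bars for 1 SD. ZNF385D at 0.740 to 1.06 CPM in clone 1 and at most 0.149 CPM in clone 2 lies far below 8.75 to 10.8 CPM in wild type, and ZNF518B lies above wild type in clone 2 and below it in clone 1.

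Between the clones, 2 members were higher and 3 lower in clone 2 than in clone 1 (adjusted p below 0.05, edgeR), which is 2.33% of those tested, against 2.09% of all features (1.1% higher and 0.993% lower). None of these 5 has a KRAB box: ZNF892, ZNF518B, ZNF385D, ZNF804A and ZNF704. Of the 102 tested KRAB members none was called between the clones, 3 had an unadjusted p below 0.05, and DESeq2 called 0. After the correction for GC content, which gave calls for 2.51% of all features here, 1 was called, ZNF436, at a log2 fold change of -0.23 in clone 2 over clone 1 (adjusted p = 0.0452, and 0.132 without the correction). ZNF518B, whose product is known to bind the histone methyltransferases EHMT1 and EHMT2, had 23.6 and 24.3 CPM in clone 2, 10.4, 11 and 10.2 CPM in clone 1, against 14.3, 14.1 and 15.2 CPM in wild type. The clones stood on opposite sides of wild type with no overlap, at a log2 fold change of 0.72 ± 0.08 in clone 2 over wild type (adjusted p = 4.19e-05) and of -0.46 ± 0.07 in clone 1 over wild type (adjusted p = 0.00111). Its numbered relative ZNF518A averaged 44.6 ± 8.8 CPM in clone 2, 44.4 ± 8.7 CPM in clone 1 and 48.7 ± 0.82 CPM in wild type, and its groups overlapped. ZNF704 had 6.24 and 5.99 CPM in clone 2, 13.7, 16.9 and 16.3 CPM in clone 1, against 8.0, 9.08 and 7.71 CPM in wild type. It too moved in opposite directions, by 0.92 ± 0.10 in clone 1 over wild type (adjusted p = 5.01e-05) and -0.43 ± 0.12 in clone 2 over wild type (adjusted p = 0.0343), and the second value was not called with the correction for GC content (-0.36, adjusted p = 0.0725) or without wild type replicate 1 or 2 or either clone 2 library. ZNF892 had 2.77 and 3.38 CPM in clone 2, 0.302, 0.902 and 0.963 CPM in clone 1, against 1.80, 2.00 and 1.77 CPM in wild type. It was lower in clone 1 than in wild type (-1.30 ± 0.28, adjusted p = 0.00785), and its value in clone 2 over wild type did not pass the test (0.73 ± 0.27, adjusted p = 0.104). The single-end KO library had 21.4 CPM of ZNF518B, against 12.1 CPM in the single-end wild type library, and 7.02 CPM of ZNF704, against 6.99 CPM. For ZNF892 it had 2.79 CPM, against 1.55 CPM in the single-end wild type library.

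The differences between knockout and wild type went with base composition. The GC content of the exons ran from 32.5% to 68.7% over the 250 genes, with a median of 46.1% among those tested, against 48.9% among tested autosomal protein-coding genes. Below 40% GC, 0 of 34 tested members rose and 10 fell, with a median log2 fold change of -0.16. Among autosomal protein-coding genes of that GC range, 46 of 1910 rose and 605 fell, with a median of -0.15. Of 50% GC or more, 11 of 80 members rose and 0 fell, with a median of 0.07, and among autosomal protein-coding genes of that range 1276 of 6186 rose and 186 fell, with a median of 0.10. At an unadjusted p below 0.05, 0 members below 40% GC were higher and 6 members of 50% GC or more were lower, and DESeq2 called none in either case. Once the GC correction described below was applied, 3 of the 80 members of 50% GC or more were higher and 8 lower. Of the 34 below 40%, 0 were higher and 2 lower. Of autosomal protein-coding genes in those ranges, 725 of 6186 were then higher and 617 lower, and 111 of 1910 higher and 168 lower. The median GC content was 56.2% in the members that rose and 41.2% in those that fell. Across the tested members, Spearman's rho of the log2 fold change with GC content was 0.56, given as a description since members share the same libraries, and it was -0.13 across 219 members in the single-end pair.

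The same relation differed from library to library. Spearman's rho of a library's deviation from the mean of all libraries with GC content, across tested members, was 0.62, -0.12 and 0.39 in clone 1, 0.60 and -0.26 in clone 2, and -0.58, -0.52 and -0.35 in wild type. In each clone replicate 2 stood nearest to wild type. The column names carry running sample numbers: 1 library of each clone and all of wild type have numbers up to 5, and the other knockout libraries have numbers of 11 and above. Among libraries numbered up to 5, with 1 library of each clone assumed to vary like wild type, 18 of 216 tested members rose and 51 fell. These are 8.33% and 23.6% of those members, against 10.8% of all 21223 features tested there higher and 12.3% lower. When a term for low and high numbers was added to the fit of all libraries, 16 of 215 members rose and 46 fell (7.44% and 21.4%), against 9.62% and 10.1% of all features (19.7% in all). After a correction of each library for its trend with GC content, 11 members rose and 15 fell, against 14.9% of all features (7.87% higher and 6.99% lower), and rho was -0.01. Of the members called before, 7 that rose and 7 that fell were still called. These included ZNF385D (-5.00), ZNF804A (-3.12), ZNF532 (1.63), ZNF32 (0.88) and ZNF467 (0.42), all log2 fold changes of the mean with the correction. The part of GC content, and of what sets it, in the other differences was not tested.

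**Figure D3:**
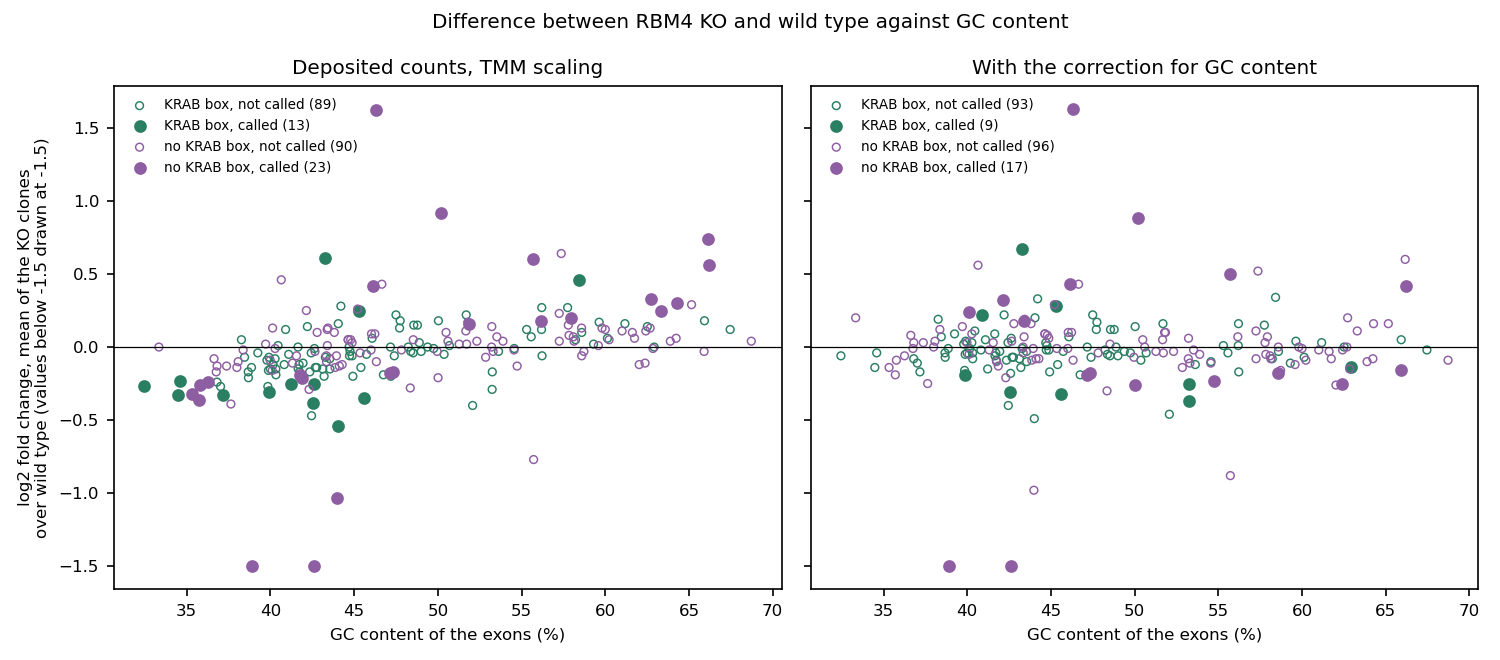
Log2 fold change of the mean of the RBM4 KO clones over wild type (vertical axis) against the GC content of the exons in percent (horizontal axis) for the tested members, before (left) and after (right) the correction for GC content, in green with and in violet without a KRAB box, filled where called. Before the correction the called members below 40% GC all fell and those of 50% GC or more all rose, and after it the trend is flat (rho -0.01) while ZNF532 and ZNF32 stay high and the points drawn at -1.5 stay low.

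By domain, 3 of 102 tested KRAB members rose and 10 fell (12.7% called, against 18.0% of all features), with a median log2 fold change of -0.05. Of 113 members without the box, 12 rose and 11 fell (20.4% called), with a median of 0.02. Corrected for GC content, 3 KRAB members were higher and 6 lower, and 8 members without the box were higher and 9 lower. Of all features, 7.87% were then higher and 6.99% lower. The groups also differed in GC content, with medians of 44.7% and 48.4%, and with the correction their medians were -0.03 and -0.01. Among the 19 tested SCAN members, edgeR called 0 and DESeq2 called 0, and 7 had an unadjusted p below 0.05. On the values corrected for GC content edgeR called 1 of them, ZNF397, higher in the mean of the clones (0.18, adjusted p = 0.0139) and in clone 2 (0.21, adjusted p = 0.0237). The ZNF genes on chromosome 19 had 10 that rose and 10 that fell of 196 tested, or 10.2%, with a median of 0.00. No test was made of the difference between these groups of genes.

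In 16 places at least 3 tested members lay within 250 kb of the next, and the 3 places with the most calls had 2 each. On chromosome 10 (43436841 to 43648856), ZNF487 rose (0.61 ± 0.18, adjusted p = 0.0276, edgeR) beside ZNF32, while ZNF485 between them averaged 5.92 ± 0.96 CPM in clone 1, 5.41 ± 0.61 CPM in clone 2 and 5.93 ± 0.45 CPM in wild type, and ZNF239 had no count. On chromosome 16 (30378106 to 30787202), ZNF768 and ZNF688 rose among 8 tested genes, with log2 fold changes of 0.25 and 0.46, and all 8 had values above 0 (0.02 to 0.46). The median GC content of this place was 58.1%, and of the 80 tested members of 50% GC or more, 59 had values above 0. With the correction for GC content neither ZNF768 nor ZNF688 was called (adjusted p = 0.127 and 0.0696). ZNF48, ZNF764 and ZNF629 were then below 0 (-0.02, -0.11 and -0.08), and the other tested genes ran from 0.01 to 0.34. On chromosome 7 (63998874 to 65006684), ZNF680 and ZNF273 fell among 6 tested genes, with log2 fold changes of -0.27 and -0.35, and their neighbours ran from -0.27 to 0.14. That place had a median GC content of 36.9%, and with the correction ZNF680 was at -0.06 (adjusted p = 0.564) and ZNF273 at -0.32. Of these calls on the mean, those of ZNF32 and ZNF273 alone were kept whichever library was left out. KRAB genes of 1 place are often close copies, and the sources used here do not say how reads with several alignments were counted, so their levels are uncertain.

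The cofactors through which KRAB proteins silence their targets were listed from textbook knowledge. Of 41, 40 were tested, 0 rose and 7 fell (17.5% called), against 18.0% of all features (9.87% higher and 8.09% lower), so the share called lay near that of all features. Their median log2 fold change was -0.04. Of the list, 1 had an unadjusted p below 0.05 on the higher side, and DESeq2 called 0 higher and 8 lower. SUV39H2, a histone H3 lysine 9 methyltransferase, averaged 43.6 CPM in clone 1, 45.5 CPM in clone 2 and 52.9 CPM in wild type (-0.25 ± 0.05, adjusted p = 0.00597, edgeR). CBX3, an HP1 protein, averaged 298 CPM in clone 1, 290 CPM in clone 2 and 345 CPM in wild type (-0.23 ± 0.05, adjusted p = 0.01). TRIM28 averaged 693 CPM in clone 1, 670 CPM in clone 2 and 653 CPM in wild type (0.06 ± 0.05, adjusted p = 0.415), and SETDB1 averaged 52.8 CPM in clone 1, 52.0 CPM in clone 2 and 51.4 CPM in wild type (0.03 ± 0.05, adjusted p = 0.759). With the correction for GC content, 4 of the list were lower and 0 higher in the mean of the clones, against 6.99% and 7.87% of all features. Without it, clone 1 had 0 higher and 6 lower (15.0%, against 16.0% of all features). Clone 2 had 0 higher and 1 lower (2.5%, against 10.8%). In both clones the same way 1 was called, lower (2.5%, against 7.51%). With the correction, 6 were lower in clone 1, 4 in clone 2 and 3 in both clones, and 0 were higher in each case. Of all 20747 features, 1243, 928 and 607 were then lower in the same order, and 1454, 1189 and 774 higher. SUV39H2 and CBX3 were not followed through the alternative fits.

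The single-end pair held at least 20 counts for 219 members. Of these, 1 was at least 2-fold higher in the KO library (ZNF532) and 3 at least 2-fold lower (ZNF385D, ZNF804A and ZNF365), against 4.64% of all features either way (3.04% higher and 1.6% lower). ZNF365, named here after its value was seen, had 9 counts in the single-end KO library and 38 in the single-end wild type library. In the paired-end libraries it had 0.393, 0.361 and 0.346 CPM in clone 1, 0.248 and 0.106 CPM in clone 2, against 0.546, 0.542 and 0.461 CPM in wild type (-1.03 ± 0.31, adjusted p = 0.0374, edgeR), and it was not called with the correction for GC content (adjusted p = 0.0529) or without any 1 of 6 of the 8 libraries. The median log2 difference of the members in the single-end pair was 0.04, against 0.01 over all features. Of the 36 members called in the mean of the clones, 27 (75.0%) had the same sign in the single-end pair, against 85.9% of 3630 called features with at least 20 counts there.

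**Figure D4:**
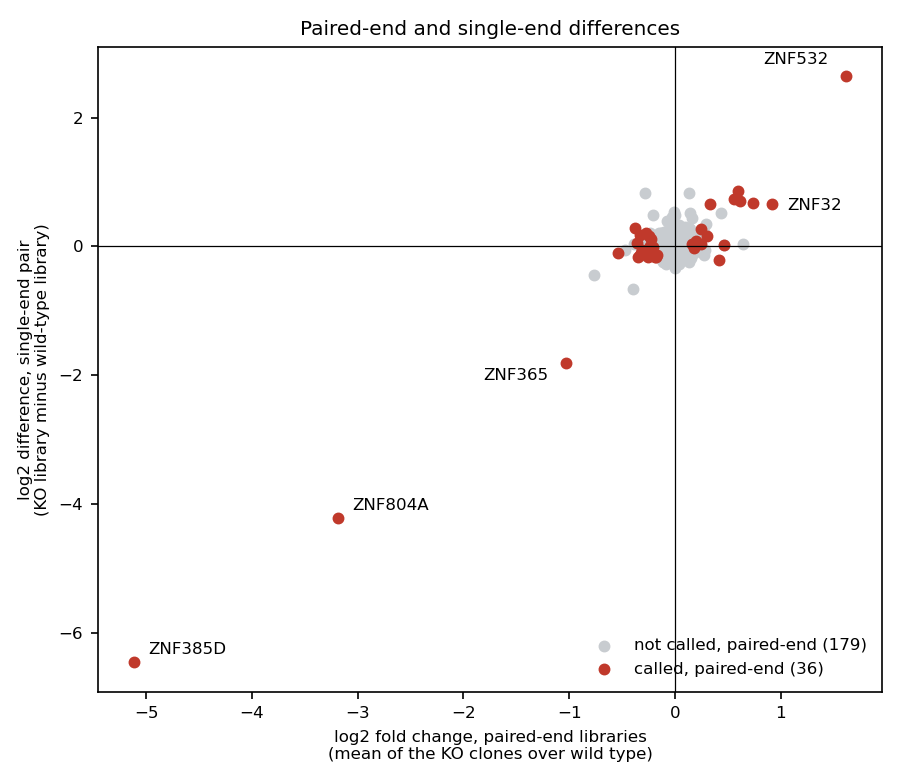
Log2 difference of the single-end pair, KO library minus wild type library (vertical axis), against the log2 fold change of the mean of the RBM4 KO clones over wild type in the paired-end libraries (horizontal axis), for tested members with at least 20 counts in the pair, in red where called in the paired-end libraries. ZNF385D, ZNF804A and ZNF365 lie low and ZNF532 and ZNF32 high on both axes, and most of the other members lie near 0.

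Of the 250 members, 203 had a RefSeq promoter window. In 1 window per member (the one nearest to the GENCODE 5′ end), the median number of CpG dinucleotides was 24 in 300 bases, against 14 over all 35097 windows of the same length. It was 25 for tested members and 14 for members with too few counts to test. GGGCGG was found on either strand in 61.1% of member windows, against 44.9% of all windows. CCAAT was found in 43.8% of member windows, against 34.6%, and TATAAA in 3.45%, against 11.5%. The set of all windows holds several starts for some genes, such as 5 for ZNF532, where each member gave 1. No comparison was made with 1 window per protein-coding gene. These contrasts therefore cannot be read as a trait of the members.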

How the data were processed

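Reads of 8 paired-end and 2 single-end libraries had been counted by the authors, and the deposited tables hold raw counts, whole numbers for each gene and repeat subfamily. The submitters' processing notes name STAR 2.5.2a and the build hg38 (GRCh38). The kit was stranded, per the labels' protocols. Neither the strand setting of the counting nor its handling of reads with several alignments is stated in the sources used here. Members, gene lists and tests were chosen with earlier results of these data known.

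The 20747 features left by edgeR's filterByExpr were scaled with TMM factors, and each was tested with edgeR's quasi-likelihood test (robust, with a mean for each group). Benjamini-Hochberg adjustment ran over all features, and the threshold was 0.05. CPM are counts divided by the TMM-scaled library size. The single-end pair gave values only, on a log2 scale with a prior count of 2. Exact 95% intervals cover counting error only. Coordinates, exon GC content and coding sequences came from GENCODE 29, and promoter windows from RefSeq (GRCh38.p14). KRAB and SCAN boxes were scored in translated GENCODE coding sequences by identity to the majority sequence of the box (at least 13 of 41 and 30 of 60 residues), not in RefSeq proteins as first planned, and BTB domains were not scored. For the KRAB box the best score below the threshold was 12 and the lowest above it 13, so genes near it may be misplaced. For the SCAN box these scores were 15 and 37. The GC correction used a lowess trend per library (span 0.3) as an offset. The tools were edgeR 4.0.16 and DESeq2 1.42.0 with limma 3.58.1, in R 4.3.3. On simulated data (the same 20747 features, average over both clones), the test called 37.3% of features with a 1.3-fold change, 65.7% at 1.5-fold, 78.8% at 2-fold and 0.0705% of the unchanged ones. The simulated counts had neither the trends with GC content nor the split by sample number of these libraries. These rates therefore do not cover calls that go with either.

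Named were up to 12 members per direction called in the same direction in each clone and with no overlap between knockout and wild type libraries, up to 5 per direction called between the clones, the 6 highest per kilobase, relatives by number, the members of the 3 clusters with most calls and up to 2 cofactors per direction. Other names were chosen after their values were seen.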

Additional observations from a re-analysis of the deposited data

Results flagged for a closer look

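For 5 members the difference from wild type was not the same in the clones, by the test of clone 2 against clone 1 itself (edgeR, adjusted over all features). On the log2 scale, clone 2 over clone 1, these were -3.44 for ZNF385D (adjusted p = 0.00238), -2.36 for ZNF804A (adjusted p = 0.0104), -1.36 for ZNF704 (adjusted p = 1.12e-05), 1.18 for ZNF518B (adjusted p = 7.42e-07) and 2.03 for ZNF892 (adjusted p = 0.00142). ZNF385D and ZNF804A lay below wild type in both clones, and ZNF518B and ZNF704 lay on opposite sides of it. The ZNF804A difference was not called without clone 2 replicate 1, without clone 2 replicate 2 or among the low sample numbers alone, where it ran between -2.56 and -1.59 over all alternatives. The other 4 were called under every alternative run. Each clone is a single clone, so what sets these differences was not tested.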

How the results depend on the processing

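Counts of members called were within 1.5 times the reported ones under DESeq2's size factors, TMM factors from genes only, the DESeq2 test, the GC correction and, where it could be run, the knockout libraries as 1 group. The exceptions were as follows. With a term for low and high sample numbers, 62 members were called for the mean of the clones (reported: 36), 66 in clone 1 (35), 42 in clone 2 (18) and 38 the same way in both clones (12). Among low sample numbers alone the counts were 69, 58, 46 and 38. Without a filter on low counts, 28 members were called in clone 2. With the sample-number term, 19.7% of all features were called for the mean of the clones, against 18.0% as reported. For low sample numbers the shares are given above, for the mean of the clones. For the other alternative counts printed in this section no share of all features was counted. The cause of these shifts was not tested. Leaving out 1 library at a time gave 14 to 42 members for the mean of the clones, 16 to 39 in clone 1, 6 to 26 in clone 2, 4 to 13 the same way in both clones and 4 to 5 between the clones. No named value that was called changed direction.

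With the replicate number as a block, 44 members were called for the mean of the clones, 43 in clone 1, 22 in clone 2, 17 in both clones and 5 between the clones, and with the block and the GC correction 27, 27, 13, 10 and 5. By the rule that every same-numbered pair should correlate above 0.1, the numbers were not taken to pair the samples. Same-numbered libraries of clone 1 and wild type had correlations of deviations of -0.048, -0.045 and -0.233, those of clone 2 and wild type 0.0087 and 0.054, and those of clone 1 and clone 2 0.253 and 0.197, where libraries of unlike numbers ran from -0.253 to 0.0978. Clone 2 has 2 libraries, whose deviations mirror each other. Its values for unlike numbers therefore repeat those for other pairs with the sign changed and add nothing separate. Low counts limit ZNF385D and ZNF804A in clone 2, and 35 members could not be tested at all.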

Other observations

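A few members are known for work other than the control of promoters, and these were picked after their values were seen. ZNF326, a subunit of the DBIRD complex that links RNA polymerase II to splicing, averaged 93.4 ± 5.9 CPM in clone 1 (SD, n = 3), 98.3 ± 8.7 CPM in clone 2 (n = 2) and 115 ± 1.5 CPM in wild type (n = 3), a fall of the mean (log2 fold change -0.26, adjusted p = 0.00516, edgeR) that was not called with the GC correction (adjusted p = 0.149). ZNF207, a spindle protein that binds microtubules, averaged 275 ± 11 CPM in clone 1, 287 ± 11 CPM in clone 2 and 297 ± 5.8 CPM in wild type (adjusted p = 0.25). ZNF638, a nuclear matrix protein that acts with the HUSH complex, averaged 124 ± 14 CPM in clone 1, 120 ± 17 CPM in clone 2 and 131 ± 1.5 CPM in wild type (adjusted p = 0.451). Knockout and wild type libraries overlapped for ZNF207 and ZNF638 and not for ZNF326.

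Another 2 members rose in the mean of the clones, and that call was kept with the GC correction and whichever library was left out. ZNF423, a partner of EBF factors, had 3.90, 3.27 and 3.41 CPM in clone 1, 4.95 and 3.91 CPM in clone 2, against 2.73, 2.54 and 2.5 CPM in wild type (0.60 ± 0.13, adjusted p = 0.00564, edgeR). ZNF436, a KRAB member, had 70.2, 78.0 and 70.7 CPM in clone 1, 60.2 and 64.6 CPM in clone 2, against 56.4, 55.7 and 57.7 CPM in wild type (0.25 ± 0.05, adjusted p = 0.00477). Both stood above wild type in every knockout library. In single clones ZNF423 was called in clone 2 (adjusted p = 0.00519) and not in clone 1 (adjusted p = 0.0531), and ZNF436 in clone 1 (adjusted p = 0.000898) and not in clone 2 (adjusted p = 0.205).

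A few members were counted in the single-end pair and hardly in the paired-end libraries. ZNF750, an epidermal differentiation factor, had 220 counts in the single-end KO library and 150 in the single-end wild type library, and 1 count over all 8 paired-end libraries. ZNF785 had 136 counts in the single-end KO library, 88 in the single-end wild type library and 6 over the paired-end libraries. ZNF785 shares exon sequence with AC002310.2 on the opposite strand, and how either table was counted with regard to strand is unknown. Reads of ZNF785 and AC002310.2 therefore cannot be told apart. For ZNF750 no exon overlap with another annotated gene was found on either strand. The reason for the difference between the tables was not tested.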
